A study of Sus scrofa with 2 samples.

Results

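The CD-numbered antigen genes are the pig genes whose symbol is CD followed by a number, most of them named for surface proteins first recognised on leukocytes. They were taken from both arrays by the transcript accessions of the probes, leaving out CD14, CD36 and CD163. By this rule 36 genes belonged to the group, of 2459 genes that could be named on the arrays, and the pig annotation holds 74 symbols of this form. The group therefore covers 48.6% of the CD-numbered genes, and CD5, CD8B, CD28, CD44, CD53, CD63, CD68 and CD79B are among the 38 not analysed here.

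RNA came from the ovaries of females on day 15 of the estrous cycle, with the corpora lutea cut away, and each breed was measured on 1 single-colour Agilent array, called here the conventional array and the minipig array. The conventional pigs were Yorkshire sows and the minipigs were Midget pigs, of the same age and with several completed cycles, and no treatment is named for either. The sources used here do not say whether an array held the RNA of 1 animal or of a pool. The scanner software gives each spot an intensity corrected for background, an error and a flag that says whether it lies well above background. A level is the log2 intensity minus the 75th percentile of its array, and each difference is the conventional array minus the minipig array. A gene's level is the median over its probes, and its difference is the median of the differences of its probes, so the second need not equal the difference between the levels.

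Leukocytes carry sets of CD antigens that mark their lineage. T cells read peptide antigens through a receptor whose signal passes through the CD3 chains and CD247, and B cells signal through a receptor that includes CD79A. CD80, CD86 and CD40 on antigen-presenting cells costimulate lymphocytes, whereas CD46, CD55 and CD59 shield host cells from complement. Other CD antigens, such as the tetraspanins CD9, CD81 and CD82, are found on many cell types, including follicular cells. In the ovary, leukocytes move in around ovulation and when the corpus luteum regresses.

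The breed labels need care. A table of log2 values that the authors also deposited holds the same intensities with the breeds exchanged: over 5613 probes its minipig column followed the conventional array, and the reverse, with a largest departure of 7.46e-07 from a constant. The breeds are given throughout as the scanner files label them, and under the labels of the table each direction below turns round. With 1 array per breed no difference could be tested against the spread between animals, and the number of arrays limits the precision. Repeated spots of 42 probes gave an SD of 0.25 for a log2 difference between single spots, which covers the spots and not the animals. The arrays were alike in brightness, with a median intensity of 119 on the conventional array and 128 on the minipig array, and 85.2% and 88.1% of the probes were well above background.

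Of the 36 antigen genes, 32 were measured well above background on at least 1 array and had a difference. CD164, CD247 and CD83 were higher on the conventional array by at least 2-fold, and CD180 and CD3G on the minipig array by as much. In RNA of whole tissue, fewer cells of a type and less RNA per cell cannot be told apart. The 3 genes on the conventional side were 9.38% of the measured antigens, beside 11.7% of the 2363 named genes that had a value. The 2 genes on the minipig side were 6.25%, beside 7.96% of all named genes. At 1.5-fold, 4 antigens (12.5%) were higher on each array, with CD86 added on the conventional side and CD55 and CD69 on the minipig side, beside 23.7% of all named genes on the conventional array and 16.2% on the minipig array. After median centring, the 2-fold calls among all named genes moved from 277 against 188 (59.6% on the conventional side) to 364 against 140 (72.2%), while the antigens stayed at 3 against 2. The minipig share of the antigens, 6.25%, then lay beside 5.93% of all named genes. Past 2-fold were also 4 of 36 antigens on the minipig side with no filter on dim probes, beside 8.7% of all named genes, and 4 of 33 on the conventional side with outlier spots kept, beside 11.8%. Under the other settings run on the scanner intensities the share of antigens past 2-fold was below that of all named genes on each side.

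The median difference of the 32 antigens was 0.18, beside 0.037 for all named genes. Of the antigens, 18 lay on the conventional side and 14 on the minipig side, beside 1240 and 1123 of all named genes. Differences of less than 1.3-fold were found for 20 antigens (62.5%), beside 44.5% of all named genes. The antigens were measured by 54 probes that passed the background flag on each array, and by 2 that passed it on the minipig array alone. Those 2 probes, for CD3G and CD69, give a bound, taken against the lowest level well above background on the conventional array. A value rested on 1 probe for 18 genes. Among the other 14, all probes of a gene lay on the same side of 0 for 8 genes. The SD between the probes of a gene had a median of 0.22 for 13 antigens with several probes measured on both arrays, beside 0.20 for 1220 named genes. The error that the scanner software gives, carried to the difference, had a median of 0.21 over the antigens, and 10 of the 32 (31.2%) differed by more than 2 such errors, beside 49.6% of all named genes. This error was 0.204 at its lowest and nearly the same for all bright probes. For bright genes the count is therefore close to a fixed cut on the fold.

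**Figure D1:**
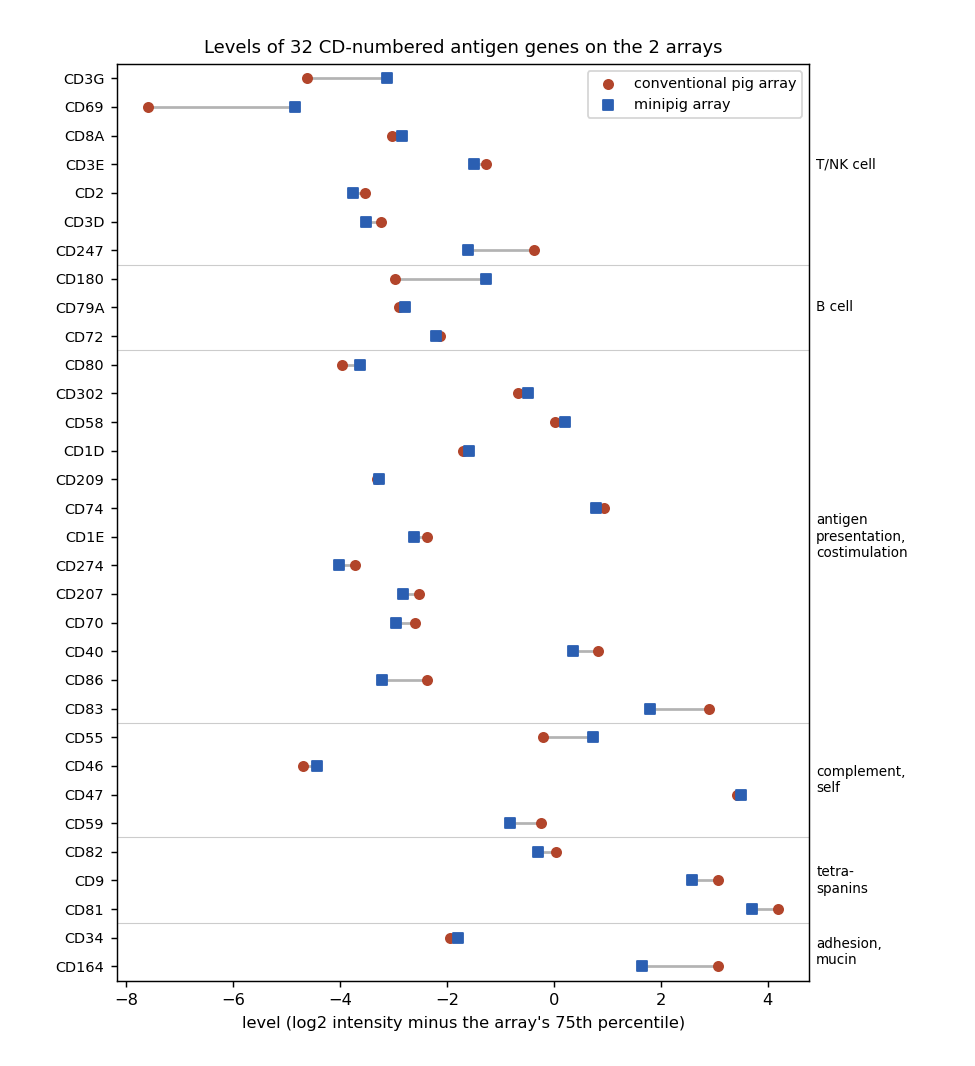
Level of each of the 32 CD-numbered antigen genes on the conventional array (circles) and the minipig array (squares), in log2 intensity minus the 75th percentile of the array, grouped by role; there is 1 array per breed, so no error bar is drawn. Most pairs of symbols lie close together, and the widest gaps belong to CD69, CD180, CD3G, CD164 and CD247; the conventional level of CD69 was not well above background.

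The T cell antigens gave no common direction. CD247, the zeta chain that carries the signal of the T cell receptor and of some natural killer cell receptors, stood at a level of -0.38 on the conventional array against -1.61 for minipigs. Its difference was 1.23, or 2.35-fold, and its 2 probes gave the same value to 2 decimals although their intensities differed, at 198 and 787 on the conventional array and 81.1 and 323 on the minipig array. The scanner error of the difference was 0.21. Under normexp background correction the difference was 0.92, below 2-fold.

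The CD3 chains, which assemble with CD247 in the same receptor, lay elsewhere. CD3E stood at levels of -1.28 (conventional) and -1.49 (minipig), a difference of 0.22 with a scanner error of 0.21. CD3D had levels of -3.24 and -3.52, a difference of 0.28, from a single probe, the second one being too dim on both arrays to lie well above background. Both differences were near the spread of repeated spots.

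CD3G was the exception on the minipig side, and its 2 probes disagreed in size. One probe read 49.2 on the conventional array and 63.5 on the minipig array, a difference of -0.42. The other read 8.95 and 51.3 and lay well above background for minipigs alone. As a bound, taken against the lowest level well above background on the conventional array, it was 4.61-fold higher for minipigs. The value of the gene, -1.31, passed 2-fold through this bound, and without the bound it was -0.42. In the Sscrofa11.1 annotation CD3E, CD3D and CD3G lie side by side with no other protein-coding gene between them.

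CD2, an adhesion receptor of T and natural killer cells, had a difference of 0.24 from 1 probe, with intensities of 44.5 on the conventional array and 36.3 on the minipig array. CD8A, the coreceptor of cytotoxic T cells, had a difference of -0.18, with probes at -0.41 and 0.043. The signs of CD2 and CD8A changed with the processing. CD69, which appears early on activated lymphocytes, read 2.67 on the conventional array, not well above background, and 17.3 on the minipig array. As a bound, taken against the lowest level well above background on the conventional array, it was 1.55-fold higher for minipigs (-0.63). This is not a strict minimum, since it was -0.25 after quantile normalization. The scanner error of CD69 was 1.46. CD40LG, the activation ligand of helper T cells, and the remaining probe of CD4, the helper T cell coreceptor, were on neither array well above background. Over the 7 T and natural killer cell antigens with a value the median was 0.22, with 4 genes on the conventional side and 3 on the minipig side, and it was -0.0049 under normexp correction.

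Among the B cell antigens, CD180 stood out, on the minipig side. CD180, a Toll-like receptor homologue of B cells that is also found on myeloid cells, had an intensity of 65.5 on the conventional array and 205 on the minipig array. Its difference was -1.70, the lowest of the 32 antigens, or 3.25-fold, with a scanner error of 0.21, and it rests on 1 probe. CD79A, a signalling chain of the B cell receptor, read 69.2 and 71.9 on the conventional pig and minipig arrays, a difference of -0.11. CD72, an inhibitory coreceptor of B cells, had a difference of 0.072 from a single probe, since the second was dim on both arrays. The median of the 3 B cell antigens with a value was -0.11, and it turned positive under median centring and under quantile and loess normalization.

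The antigens of antigen presentation and costimulation were the largest group, with 13 genes with a value, 8 on the conventional side and 5 on the minipig side. Their median was 0.24, between 0.11 and 0.41 over the other settings. CD83, a marker of mature dendritic cells that activated lymphocytes also carry, had an intensity of 3836 on the conventional array and 1712 on the minipig array. Its difference was 1.11, or 2.16-fold, with a scanner error of 0.20, from 1 probe, and it was below 2-fold under quantile normalization (0.88) and loess normalization (0.92).

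CD86 and CD80, the paired ligands through which antigen-presenting cells costimulate T cells, lay on opposite sides. CD86 had a difference of 0.84, or 1.79-fold, toward the conventional array. Its 2 probes were not alike in size, one reading 61.5 on the conventional array and 24.2 on the minipig array (1.29), the other 158 and 116 (0.40). CD80 had a difference of -0.33, with both probes on the minipig side, at -0.39 and -0.27. It was dim, at 33.1 and 40.1 on the conventional pig and minipig arrays. Its scanner error was 0.26, so the difference was less than 2 such errors. After quantile normalization the difference of CD80 was -0.067. CD40, the costimulatory receptor of B cells and dendritic cells, had a difference of 0.46, and its 2 probes gave 0.44 and 0.48.

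The remaining genes of this group differed by less than 1.3-fold. CD70, a ligand of the tumour necrosis factor family, had a difference of 0.35 and was just short of that fold at 1.28. CD207, the langerin of Langerhans cells, and CD274, the inhibitory ligand PD-L1, were each at 0.30. CD1E and CD1D, which serve the presentation of lipid antigens, were at 0.24 and -0.11. They belong to a family of related genes, and binding of one another's transcripts by their probes was not tested. CD74, the invariant chain of MHC class II, was at 0.14, but its 2 probes were at 0.43 and -0.15. CD209 (DC-SIGN) was at -0.044 and the lectin receptor CD302 at -0.20. CD58, the ligand of CD2, was at -0.19, and its probes agreed at -0.21 and -0.16. CD84 was on neither array well above background.

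**Figure D2:**
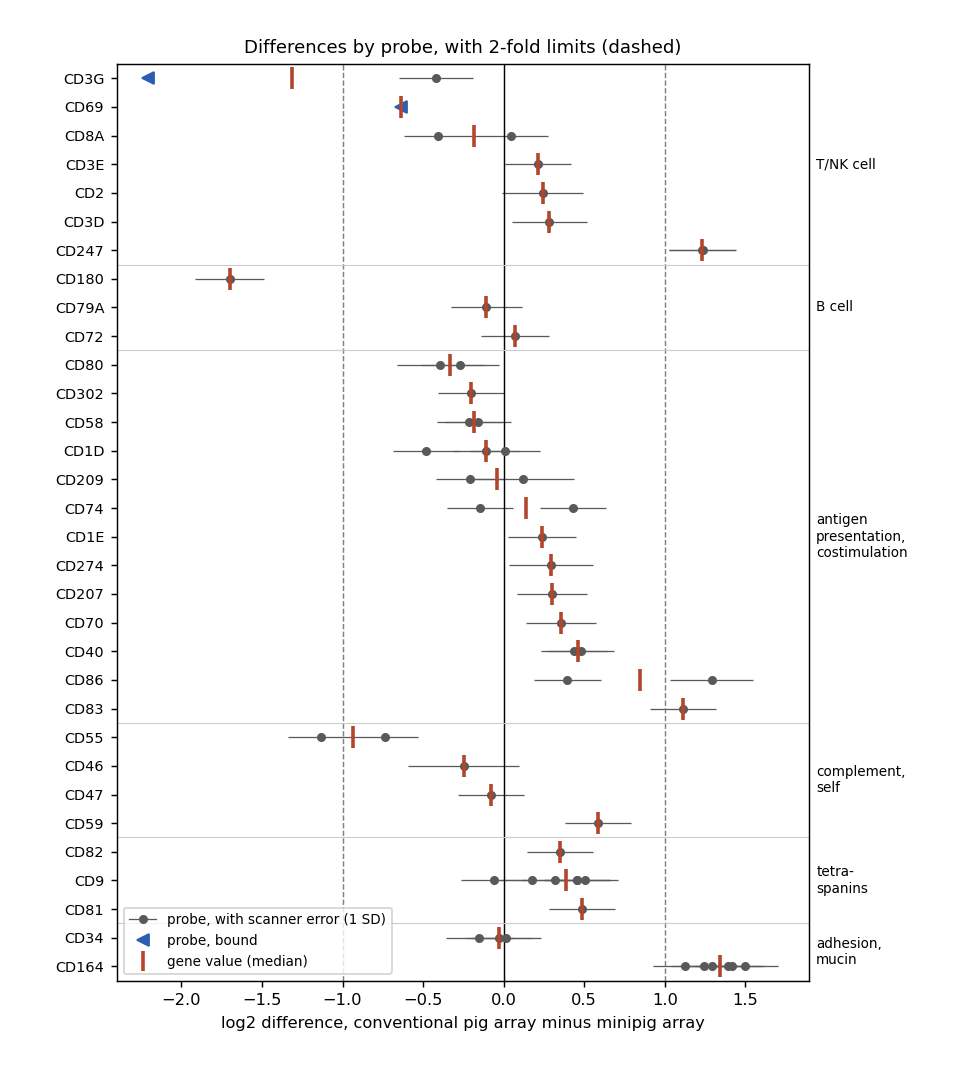
Log2 difference of each probe of the 32 antigen genes, conventional pig array minus minipig array, with the scanner error as 1 SD (dots and bars), bounds (triangles) and the value of the gene (red ticks); dashed lines mark 2-fold. The 6 probes of CD164 lie together beyond the 2-fold line, while those of CD86, CD55 and CD3G fall on both sides of a 2-fold line.

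The complement regulators had no common direction. CD55, the decay-accelerating factor, stood at a level of -0.20 on the conventional array against 0.73 for minipigs. Its difference was -0.94, or 1.91-fold, and both probes were higher on the minipig array, one with intensities of 230 and 485 (-1.13), the other with 864 and 1389 (-0.74). CD59, which blocks the membrane attack complex, lay on the other side, with intensities of 434 on the conventional array and 279 on the minipig array. Its difference was 0.58, just short of 1.5-fold, from 1 probe. The differences of CD55 and CD59 were each over 2 scanner errors and kept their direction under every processing alternative run on the scanner intensities.

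CD46, the membrane cofactor protein, had a difference of -0.25, but it was dim, at 19.9 and 22.8 on the conventional pig and minipig arrays, with a scanner error of 0.34. CD47, the signal that keeps macrophages from engulfing a cell, was bright and close to even, at 5511 and 5610, a difference of -0.079. The signs of CD46 and CD47 changed with the processing.

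The 3 tetraspanins, which organise membrane complexes on many cell types, were each higher on the conventional array by less than 1.5-fold. CD81 had intensities of 9334 on the conventional array and 6431 on the minipig array, a difference of 0.48. CD9, known for its part in the fusion of sperm and egg, had a difference of 0.39 over 6 probes, which ran from -0.062 to 0.50, and its brightest probe was the one at -0.062. CD82 had a difference of 0.35. The median of the 3 genes, 0.39, was 0.092 after quantile normalization, and CD9 reversed when its brightest probe was taken.

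CD164, a sialomucin of blood progenitors that is also found in the endosomes and lysosomes of many cells, had the largest difference toward the conventional array. Its level was 3.06 there and 1.65 on the minipig array. Each of its 6 probes was higher on the conventional array by over 2-fold, from 2.19-fold to 2.82-fold, although their intensities on that array ran from 893 to 11084. The gene's difference was 1.34, or 2.54-fold, with a scanner error of 0.20, and it stayed over 2-fold under every alternative run on the scanner intensities. CD34, an antigen of blood progenitors and endothelium, was even between the arrays by comparison, at -0.031, with 3 probes from -0.15 to 0.015.

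Other genes, from lists of 99 genes with leukocyte roles but no CD number as symbol, were read beside the antigens. Some, such as XBP1, act in other cells too, so the lists do not measure leukocytes alone. Of the 99 genes, 45 had a value, with a median of 0.12. Of the 45, 28 lay on the conventional side and 17 on the minipig side, beside 1240 and 1123 of all named genes. Past 2-fold were 6 of the 45 genes on the conventional side and 2 on the minipig side, beside the same 11.7% and 7.96% of all named genes. The 24 T and natural killer cell genes had a median of 0.0085 and lay 12 on each side. In that list GATA3, a transcription factor of T cell development, was at 1.12 and the kinase FYN at 1.07, while CCL5, a chemokine of cytotoxic lymphocytes, was at -1.23. LCK, the kinase that acts on the CD3 chains and CD247, was at -0.27, opposite in sign to CD247, and IL7R was at -0.17.

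The partners of antigen presentation and costimulation leaned toward the conventional array, 8 of 9 genes, with a median of 0.78. Their median lay between 0.42 and 0.93 over the other settings. ICAM1, an adhesion ligand of leukocyte integrins, was at 1.70 and B2M, the light chain of MHC class I, at 1.17. The 8 pan-leukocyte genes had a median of 0.12. The integrin chain ITGB2 was at 0.14 and TYROBP, a signalling adaptor of myeloid and natural killer cells, at 0.10. SELPLG, the ligand of P-selectin, lay well above background for minipigs alone. Its difference of -1.14, or 2.20-fold, was taken against its own dim reading on the conventional array and is not a minimum. Under normexp correction it was -0.31. Of the 22 B and plasma cell genes 4 had a value, with a median of 0.021, and XBP1, which drives secretory programmes in plasma cells and in other cells, was at 1.12.

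**Figure D3:**
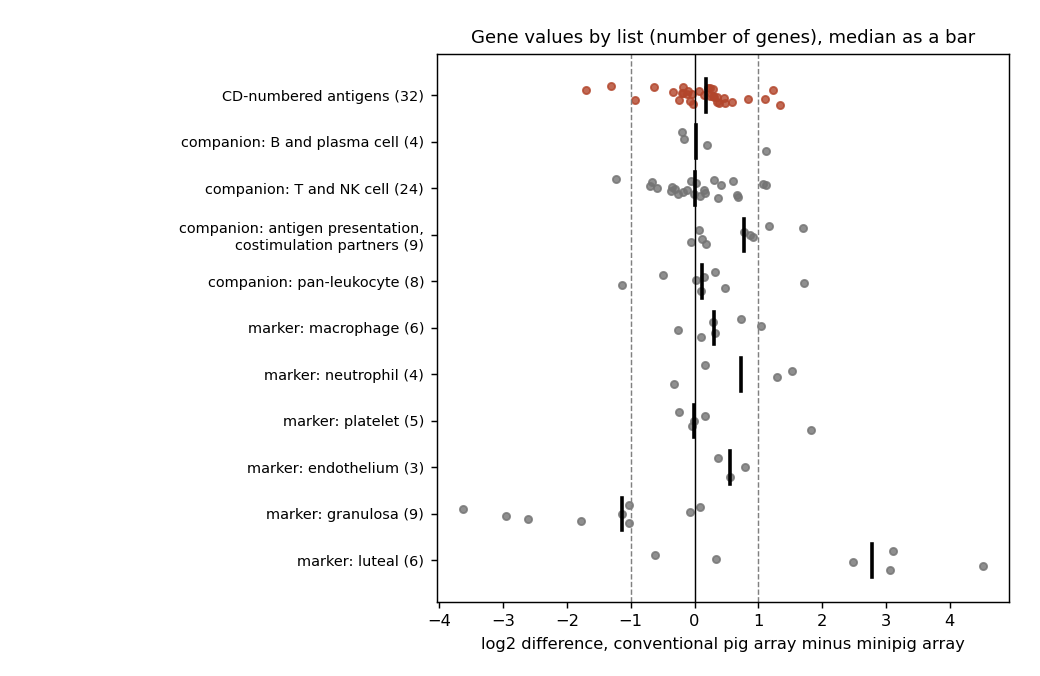
Log2 differences, conventional pig array minus minipig array, of the CD-numbered antigen genes (red), companion lists and lists of cell type markers (grey). The companion lists hold genes with leukocyte roles, not limited to leukocytes. Numbers of genes are in brackets, and black bars mark the median of each list. Dashed lines mark 2-fold. The antigens centre near 0, while the granulosa markers lie mostly below it and the luteal markers mostly above it.

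Markers of the follicle and of luteal cells differed between the arrays. Of 9 granulosa markers with a value, from a list of 10, 8 were higher on the minipig array and 7 of them at least 2-fold, with a median of -1.13, and their summed level was 5.82 on the conventional array and 7.01 on the minipig array. All 6 luteal markers were measured, 5 of them higher on the conventional array and 4 by at least 2-fold, with a median of 2.77 and summed levels of 7.99 and 6.55 in the same order. FSHR, which defines granulosa cells, was at -3.63. The 5 oocyte markers with a value were all higher on the minipig array, with a median of -0.92. The 5 theca markers split. STAR (3.07) and CYP11A1 (2.63) lay on the conventional side. INSL3 (-3.76), CYP17A1 (-1.74) and LHCGR (-0.62) lay on the minipig side. STAR and LHCGR are also in the luteal list, so the theca and luteal lists overlap. Of 3 smooth muscle markers 2 were higher on the minipig array, with a median of -1.32. The endothelial list gave values for 3 of 10 genes, with a median of 0.55 and summed levels of 2.46 and 1.84. The macrophage list gave values for 6 of 12, with a median of 0.31, 5 genes on the conventional side and summed levels of 3.60 and 3.30. The neutrophil list gave values for 4 of 8, with a median of 0.73 and summed levels of 1.03 and 0.31. The 5 platelet markers had a median of -0.0096, with PPBP at 1.83 and the others between -0.24 and 0.17, and red cells were represented by 1 gene, HBE1, at 0.018. Of the lists that define leukocyte lineages, the T cell markers gave values for 8 of 11. Their median was 0.021, with summed levels of 0.96 and 0.66. Apart from LCK and IL7R, these T cell markers are antigens of the group, so they are no separate readout. CD247 had the highest level of them on the conventional array, at -0.38, against -1.61 on the minipig array. The B cell markers had a value for CD79A alone, which is also an antigen of the group. The part of these cells in the differences of CD164, CD247, CD83, CD180, CD3G and CD55 was not tested.

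The 11 antigens whose sign depended on the processing were CD1D, CD2, CD8A, CD9, CD34, CD46, CD47, CD72, CD74, CD79A and CD209. The other 21 kept their sign under all alternatives run on the scanner intensities. CD164 and CD180 were past 2-fold under every one of these alternatives. CD86 passed 2-fold after quantile and loess normalization, in which CD83 did not. However, CD86 was at 0.37 under normexp correction and 0.40 with the brightest probe, while CD83 was at 0.88 at its lowest.

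**Figure D4:**
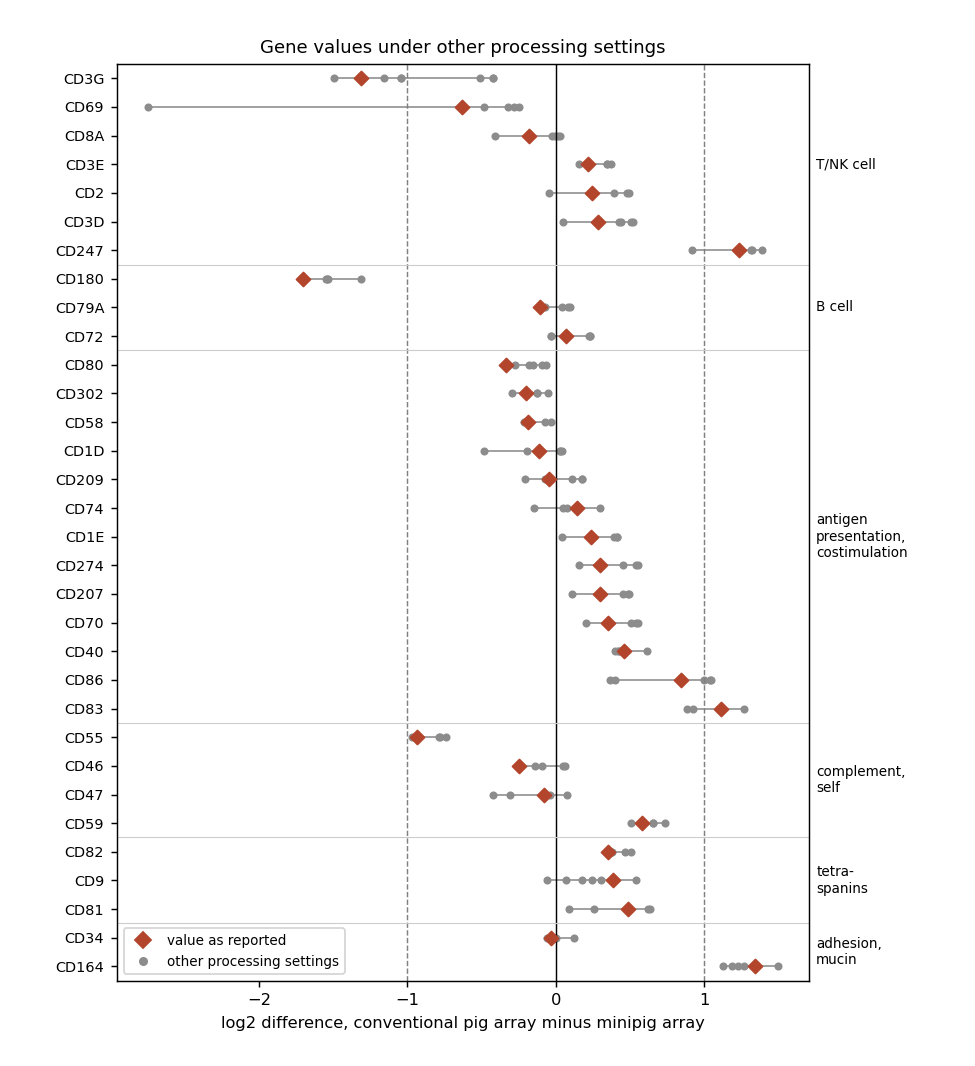
Log2 difference of each antigen gene as reported (red diamonds) and under the other processing settings run on the scanner intensities (grey dots), conventional pig array minus minipig array; dashed lines mark 2-fold. CD164 and CD180 stay beyond 2-fold on their own sides, while CD3G reaches -0.42 at its smallest and CD69 ranges from -2.74 to -0.25.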

How the data were processed

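The authors scanned 2 single-colour (Cy3) porcine arrays and deposited the output of Agilent Feature Extraction 10.7.3.1 (per the labels), in which the processed intensity of a spot is corrected for background and spatial trend and not normalized between arrays. The flags for saturation, outliers and background come from the same output. A table of log2 values for 5617 probes was deposited as well, normalized by the authors with GeneSpring by a method not given in the sources used here.

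Control spots and spots flagged as outliers (10 for conventional pigs, 5 for minipigs) were left out, repeated spots were averaged as log2 values, and the 75th percentile of the array was subtracted. No spot was saturated. Accessions, without versions, were matched to the RefSeq table of Sscrofa11.1, which named 5577 of 43597 probes (12.8%). The order of genes in the same table gave the number of protein-coding genes between neighbouring antigens. No coordinates are given, because the files name no build, and no sequences were used. A probe well above background on 1 array gave a bound, which moves with the processing. For its dim side, the lowest level flagged as well above background on that array was used, unless its own level was higher. A probe well above background on neither gave no value. Probes were summarised per gene by their median, bounds included. No test was made with 1 array per breed, and a fold of 2 or 1.5 counted as past the limit. The scanner error is the software's own 1-SD estimate for each intensity, carried to the log2 difference, and not a spread between arrays or animals.

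The antigen genes and the lists of roles, companions and markers were chosen with earlier results of these data known. Values in full are given for antigens past 1.5-fold and for those that define a lineage, and other antigens are given by group. Some genes of these lists are not reported here. Alternatives were normexp correction (offset 50) on median spot signals, median centring, quantile and loess (span 0.3) normalization, no filter on dim probes, a stricter filter requiring both arrays, the brightest probe, the mean over probes and the deposited log2 table. Keeping outlier spots was added after the data were seen. The steps were tested on simulated data. Software was Python 3.11.15, numpy 2.4.6, pandas 2.3.3, statsmodels 0.14.6, matplotlib 3.10.9, R 4.3.3 and limma 3.58.1.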

Additional observations from a re-analysis of the deposited data

How the results depend on the processing

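Of the counts, the antigens past 2-fold on the minipig side numbered 2 as reported, 1 under normexp correction, with the brightest probe and with the stricter filter on dim probes, and 4 with no filter on dim probes, where CD69 and CD84 were added. The count on the conventional array was 3 as reported, 2 under normexp correction, 4 with no filter and 4 with outlier spots kept, and 3 under the others. The median of the antigens lay between 0.020 and 0.33. Median centring moved the median of all named genes by 0.15. The tetraspanin median was 0.092 after quantile normalization, and the medians of the other role groups moved by less than 0.25, the spread of repeated spots. Among all named genes, normexp correction took the 2-fold count on the minipig array from 188 to 98. Under the column labels of the deposited table, CD164 was at -1.34, CD247 at -1.23, CD83 at -1.11 and CD180 at 1.70, each with the sign reversed, because that table exchanges the breeds. It lists 12 probes of 6 antigens, those of CD55 and CD86 included. Naming antigens by a gene name column was not run, since the scanner files used here hold none. No paired analysis was possible because each breed has 1 array. Dim antigens are limited by background: 6 of 62 probes were well above background on neither array, and a difference in CD4, CD40LG or CD84 was not detectable.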

Other observations

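A second probe of CD4 was set aside because the scanner software flagged its spot on the conventional array as non-uniform. That spot read 1990, against an unflagged 48.8 for minipigs, a ratio of 40.8. With outlier spots kept, which was chosen after seeing the data, CD4 would be the antigen with the largest difference, at 5.30 on the log2 scale. The other probe of CD4 read 10.3 (conventional) and 13.3 (minipig) and was not well above background on either. This one spot would thus have decided the value of the gene.

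CD2 was at 0.24 and its ligand CD58 at -0.19, each within the 0.25 SD of repeated spots, and the sign of CD2 changed with the processing. In the Sscrofa11.1 annotation these genes lie with 1 protein-coding gene between them. The ligands CD86 and CD80 were at 0.84 and -0.33, with 26 protein-coding genes between them. The value of CD80 lay within 2 scanner errors. The receptors of CD80 and CD86 were represented by CTLA4, at 0.60 from 1 probe, and CD28 was not analysed here. The cytotoxic granule genes GZMB, GZMH and GZMK were at -0.70, -0.35 and -0.58, all higher on the minipig array, while GZMA was at 0.41. The regulatory T cell factor FOXP3 was at 0.029, but its 3 probes ran from -0.81 to 0.22. These genes were chosen after their values were seen.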
